A study of Mus musculus with 16 samples.

Results

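The 4 genes described here code for enzymes that handle ketone bodies, and they were taken by symbol (Aacs, Bdh1, Oxct1 and Acat1) from a table of 23970 gene symbols measured in mouse quadriceps. All 4 had a mean of at least 0.5 FPKM (fragments mapped to a gene, scaled to its length and to the size of the library), as did 11256 symbols in all, and these 11256 were tested. Ketone bodies, mainly acetoacetate and β-hydroxybutyrate, are made from acetyl-CoA in liver during fasting, low-carbohydrate feeding and prolonged exercise, and are burned in muscle, heart and brain. In the mitochondria of such tissues, Bdh1 oxidises β-hydroxybutyrate to acetoacetate, Oxct1 transfers coenzyme A from succinyl-CoA to acetoacetate, and Acat1 cleaves the acetoacetyl-CoA to acetyl-CoA for the TCA cycle. Aacs works in the cytosol instead, where it activates acetoacetate for the synthesis of sterols and fatty acids.

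Libraries of polyadenylated RNA came from the quadriceps of male C57BL/6NTac mice aged 16 weeks, in 4 groups of 4. CON-pre mice had eaten a control diet with 10% of its energy as fat for 10 weeks and were sampled at rest. HFD-pre mice had eaten a high-fat diet with 60% of its energy as fat for the same 10 weeks and were sampled at rest. CON-post and HFD-post mice were other mice on the same diets, sampled 3 h after a single treadmill run to exhaustion. All 4 groups shared the strain, acclimatization to the treadmill and a fast of 3 h. The run mice had water but no food until sampling, and per the study's methods the resting groups were matched to them in fasting period. No allele was altered, and the muscle was whole tissue at a single time point. Where fewer cells of a type and less RNA per cell could both lower a value, bulk tissue cannot tell them apart. The sources used here give 4 muscles per group and no tie between muscles of different groups, and p-values measure the spread between these muscles.

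The labelled tissue showed its markers, since the 6 genes of a skeletal muscle list (Ckm, Acta1, Des, Mb, Ttn and Myl1) summed to 29168 to 38474 FPKM per library. Total FPKM per library ran from 283575 to 329282. FPKM carry no read counts, so the precision of each value is unknown, and steps among low values gave a depth of 0.705 to 1.13 relative to CON-pre replicate 1. Libraries differed within groups in slow fibre markers (9 genes such as Myh7 and Tnnt1), with sums from 193 to 761 FPKM. Markers of liver, an organ with high ketone synthesis (8 genes such as Alb, Apoa1 and Ttr), summed to between 7.10 and 34.5 FPKM in CON-pre replicates 1, 2 and 3, HFD-pre replicates 1 and 4 and HFD-post replicate 1, and to between 0.271 and 3.39 FPKM in the other 10 libraries. Results on which these sums touch are given with them.

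The genes lie on separate chromosomes, Aacs at chr5:125475873-125517405, Bdh1 at chr16:31422297-31458901, Oxct1 at chr15:4026428-4155344 and Acat1 at chr9:53580522-53610350 (RefSeq, build GRCm38.p6). The annotated transcripts of the 4 genes shared 0% of their 50-base words with transcripts of other protein-coding genes, and noncoding genes were not searched. Per length, the order of expression was Oxct1, Acat1, Bdh1 and then Aacs in all 16 libraries. Oxct1, the enzyme specific to ketone oxidation, had a mean of 105 FPKM over the 16 libraries, more than 97.3% of the genes tested. Acat1 had a mean of 49.99 FPKM, Bdh1 of 9.06 FPKM and Aacs of 1.63 FPKM. The cytosolic enzyme was the scarcest of the 4 transcripts in every library.

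Promoter windows of the member with the lowest and the member with the highest level are shown first, since they bracket the range of expression and since Aacs was the member called in most comparisons. Each window runs from 250 bases before to 50 bases after the annotated gene start on the plus strand (RefSeq, GRCm38.p6), at chr5:125475623-125475922 for Aacs and chr15:4026178-4026477 for Oxct1. Capitals mark the word GGCGTGG on either strand, which was chosen after the Aacs window had been read.
Aacs: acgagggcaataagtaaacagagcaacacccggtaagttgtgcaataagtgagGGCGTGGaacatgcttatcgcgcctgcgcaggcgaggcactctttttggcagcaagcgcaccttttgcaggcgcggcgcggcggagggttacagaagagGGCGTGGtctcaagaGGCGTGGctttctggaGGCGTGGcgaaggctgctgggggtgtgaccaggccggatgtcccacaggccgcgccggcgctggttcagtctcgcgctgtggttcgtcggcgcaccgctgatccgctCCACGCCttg
Oxct1: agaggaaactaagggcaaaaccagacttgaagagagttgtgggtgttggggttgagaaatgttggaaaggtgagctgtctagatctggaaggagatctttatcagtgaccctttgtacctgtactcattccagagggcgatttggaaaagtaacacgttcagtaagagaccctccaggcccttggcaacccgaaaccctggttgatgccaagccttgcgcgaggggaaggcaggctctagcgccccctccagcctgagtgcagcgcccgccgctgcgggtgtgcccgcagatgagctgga
The Aacs window held 5 copies of GGCGTGG, of which 4 lay before the gene start and 1, on the opposite strand, after it. The Oxct1 window and both Bdh1 windows held 0 copies, and 8.55% of 32851 promoter windows of the same length held at least 1. Of the 5 copies in the Aacs window, 2 were part of a Kruppel-like factor motif (CCACGCCC), which overlaps the word and occurs in 5.33% of all windows. No match to a sterol regulatory element (TCACNCCAC, in 1.24% of windows), an E-box (CACGTG, 7.15%), a CCAAT box (CCAAT, 37.4%), a GC box (GGGCGG, 35.7%), an Egr motif (GCGTGGGCG, 0.612%), a cAMP response element (TGACGTCA, 1.79%), an ERR element (TCAAGGTCA, 0.423%) or an NR4A element (AAAGGTCA, 1.51%) was found in either window, with both strands searched. The GC content was 63.3% in the Aacs window and 55.3% in the Oxct1 window, against a median of 52.7% over all windows. A match in these letters is a description of the window and says nothing of binding.

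Aacs, the cytosolic acetoacetyl-CoA synthetase, was down-regulated by HFD and up-regulated 3 h after exercise. In CON-pre its levels were 1.40, 1.66, 1.80 and 1.48 FPKM, with a mean of 1.59 ± 0.180 FPKM (SD, n = 4). In HFD-pre they were 0.719, 0.598, 0.476 and 0.873 FPKM, with a mean of 0.666 ± 0.170 FPKM. Every HFD-pre library lay below every CON-pre library, and the mean of CON-pre was 2.38 times that of HFD-pre. In CON-post the levels were 3.40, 2.23, 2.67 and 2.86 FPKM, with a mean of 2.79 ± 0.484 FPKM. In HFD-post they were 1.13, 1.96, 1.28 and 1.55 FPKM, with a mean of 1.48 ± 0.367 FPKM. The post libraries lay above the pre libraries of the same diet without overlap, and the HFD-post libraries lay below the CON-post libraries without overlap. In order of level the groups ran CON-post, CON-pre, HFD-post and HFD-pre, and only the neighbours CON-pre and HFD-post overlapped, with means 0.107 FPKM apart against a pooled SD of 0.289 FPKM.

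**Figure D1:**
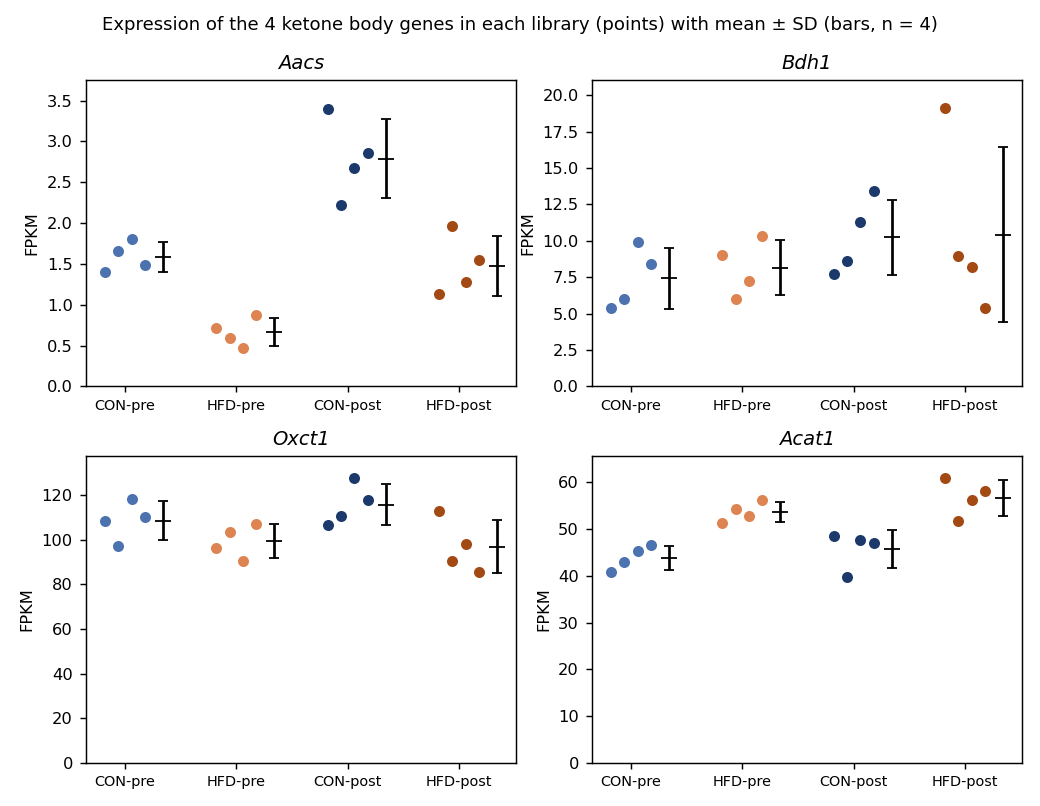
Level of each gene (FPKM, y axis from 0) in every library, by group on the x axis; points are libraries in the order of their replicate numbers and the bars give mean ± SD (n = 4). Aacs sat between 0.476 and 0.873 FPKM in HFD-pre and between 2.23 and 3.40 FPKM in CON-post with no overlap, Acat1 was at 51.2 FPKM or more in all 8 HFD libraries and at 48.5 FPKM or less in all 8 CON libraries, and the Bdh1 and Oxct1 groups overlapped.

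At rest the log2 fold change of Aacs in HFD-pre against CON-pre was -0.85 ± 0.15 (SE) on the log2(FPKM + 0.5) scale, which understates the change of a low gene, with an adjusted p of 0.0138 by limma. Aacs was the 1 of the 4 members called there, where 0.346% of all genes tested were called, and the ranges of 2 members (Aacs and Acat1) did not overlap, against 5.62% of all genes. In CON-post against CON-pre the log2 fold change was 0.65 ± 0.15 with an adjusted p of 0.0397, the mean FPKM rising 1.76-fold. Aacs was again the only member called and the only one without overlap, against 1.11% of all genes called and 5.82% without overlap. In HFD-post against HFD-pre the log2 fold change was 0.76 ± 0.15 with an adjusted p of 0.0258, the mean FPKM rising 2.22-fold. There too 1 of 4 members was called and did not overlap, against 0.542% of all genes called and 6.81% without overlap. In HFD-post against CON-post the log2 fold change was -0.74 ± 0.15 with an adjusted p of 0.0629, so 0 of 4 members were called by limma, against 0.151% of all genes, while 3 members (Aacs, Acat1 and Oxct1) had an unadjusted p under 0.05, against 6.29% of all genes, and 2 (Aacs and Acat1) did not overlap, against 3.16% of all genes. These comparisons share groups with each other and are not independent.

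Pooling gave the firmest estimates for Aacs. Exercise over both diets gave a log2 fold change of 0.70 (95% confidence interval 0.48 to 0.92) with an adjusted p of 7.68e-04, and 1 of 4 members was called against 3.86% of all genes. Diet over both states gave -0.79 (-1.01 to -0.57) with an adjusted p of 5.90e-04, and 2 of 4 members were called, Aacs lower and Acat1 higher, against 0.959% of all genes. The interaction of diet and exercise was 0.11 (-0.33 to 0.55) with an adjusted p of 1.00, an interval that leaves room for a response differing between diets by up to 0.55 on the log2 scale. No member and no other gene was called for the interaction by limma (0% of genes tested), with 356 genes (3.16%) and 0 members at an unadjusted p under 0.05.

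The single-state calls of Aacs were near the threshold, and each was lost without some single libraries while the fold changes kept their direction. The HFD-pre call was lost when CON-pre replicate 2, CON-pre replicate 3, HFD-pre replicate 2 or HFD-pre replicate 3 was left out (log2 fold changes of -0.83, -0.80, -0.82 and -0.76, adjusted p of 0.0609, 0.0581, 0.0509 and 0.0568). The CON-post call was lost without any single CON-pre replicate, without CON-post replicate 1, 3 or 4, without HFD-pre replicate 1 or 2 and without HFD-post replicate 3 or 4, with fold changes between 0.56 and 0.70 and an adjusted p of up to 0.154, and the HFD-post call was lost without any HFD-post replicate but the first and without HFD-pre replicate 1, 2 or 3, with fold changes between 0.65 and 0.80 and an adjusted p of up to 0.110. The CON-post call was also lost with a fit of its 2 groups alone (0.65, adjusted p of 0.0678) and the HFD-post call likewise (0.76, adjusted p of 0.0942). Without HFD-post replicate 2 the HFD-post against CON-post difference was called (-0.85, adjusted p of 0.0310). The pooled calls for exercise and for diet held without any single library, with adjusted p of at most 0.00283 and 0.00190.

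Aacs was also set beside adipocyte markers. Of a list of 10 adipocyte genes 9 were tested and none of these was at 0 in all libraries, and their sums ran from 373 to 478 FPKM in CON-pre, 324 to 416 in HFD-pre, 376 to 564 in CON-post and 341 to 661 in HFD-post, overlapping between all 4 groups. Fabp4 (mean 329 FPKM) and Cfd (71.2 FPKM) made up most of these sums, with Adipoq next (20.6 FPKM), so the sums mainly follow Fabp4 and Cfd. For exercise over both diets 7 of the 9 were above 0, with a median of 0.25 against 0.01 over all genes, 2 higher at an unadjusted p under 0.05 (18.5% of all genes in either direction) and none called by limma. In HFD-post against HFD-pre 7 of the 9 were likewise above 0, with a median of 0.41 against 0.04 over all genes, 2 higher at an unadjusted p under 0.05 (11.7% of all genes in either direction) and none called by limma. Within the list, leptin (Lep) was called higher (2.34, adjusted p of 0.0138) and adipsin (Cfd) lower (-1.97, adjusted p of 0.00440) in HFD-pre against CON-pre. These were the only calls of the list there, where 0.346% of all genes were called, and 5 of the 9 were above and 4 below 0. For diet over both states 2 were called higher and 2 lower, against 0.959% of all genes, with 6 above and 3 below 0. With the adipocyte marker score in the fit, Aacs kept a log2 fold change of 0.67 for exercise over both diets (adjusted p of 0.00333) and of -0.81 for diet over both states (adjusted p of 9.76e-04), while the calls in HFD-post against HFD-pre (0.71, adjusted p of 0.103) and in CON-post against CON-pre (0.64, adjusted p of 0.0508) were lost. With the liver marker score in the fit, an alternative chosen after the data had been seen, both pooled estimates kept their calls (0.71, adjusted p of 0.00352, and -0.80, adjusted p of 0.00112), and the CON-post against CON-pre call was lost (0.66, adjusted p of 0.105). For exercise over both diets, 1 of 4 peripheral nerve and 1 of 6 endothelium markers tested were called higher, against 3.86% of all genes. All 4 nerve markers were above 0, with a median of 0.21. Within groups, Aacs correlated at 0.31 with the nerve score and at 0.22 with the adipocyte score. The part of these markers in the rise of Aacs was not tested.

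**Figure D2:**
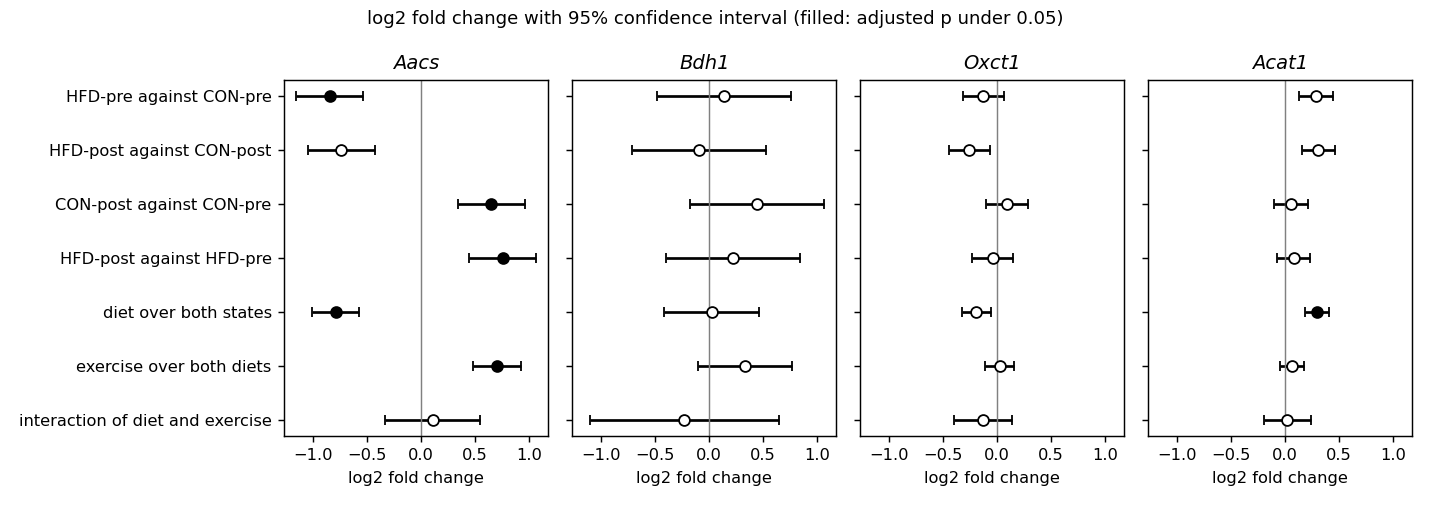
log2 fold change on the log2(FPKM + 0.5) scale (x axis) of each gene in 7 comparisons (y axis), with bars for the 95% confidence interval and filled points for an adjusted p under 0.05. Aacs has 5 filled points, below 0 for diet and above 0 for exercise, Acat1 has 1 filled point at 0.30 for diet over both states, and Bdh1 and Oxct1 have none.

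Bdh1, the mitochondrial β-hydroxybutyrate dehydrogenase, was called in none of the 7 comparisons and had a coefficient of variation of 23.2% to 57.5% within groups, against 11.3% to 25.5% for Aacs, 7.56% to 12.3% for Oxct1 and 3.97% to 8.92% for Acat1. Its levels were 5.38, 6.01, 9.88 and 8.41 FPKM in CON-pre (mean 7.42 ± 2.10 FPKM, SD, n = 4). In HFD-pre they were 9.03, 6.03, 7.25 and 10.3 FPKM (mean 8.15 ± 1.89 FPKM). Resting muscle of the 2 diets overlapped throughout, with a log2 fold change of 0.14 (95% confidence interval -0.48 to 0.76) that ran from 0.0088 to 0.28 without single libraries. After exercise the levels were 7.73, 8.63, 11.3 and 13.4 FPKM in CON-post (mean 10.3 ± 2.57 FPKM). In HFD-post they were 19.1, 8.99, 8.18 and 5.41 FPKM (mean 10.4 ± 6.00 FPKM). The highest value of the gene fell in that group together with 5.41 FPKM, just above the lowest of all (5.38 FPKM). Each pair of neighbouring groups overlapped. Exercise over both diets gave a log2 fold change of 0.33 (-0.11 to 0.77) with an adjusted p of 0.417, so a rise of up to 0.77 or no rise at all lies within the interval, and it was 0.17 without HFD-post replicate 1. Without HFD-post replicate 1 the HFD-post against HFD-pre value turned from 0.22 to -0.11, and neither was called.

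The library with the highest Bdh1, HFD-post replicate 1, also had the highest sums of slow fibre markers, 761 FPKM, and of liver markers, 34.5 FPKM. The library with the lowest Bdh1 in HFD-post, replicate 4, had a sum of 194 FPKM, and CON-pre replicate 1, with the lowest Bdh1 of all, had 212 FPKM of slow fibre markers. Other libraries went the other way, since CON-post replicate 2, with the lowest sum of 193 FPKM, had 8.63 FPKM of Bdh1, HFD-pre replicate 1, with 198 FPKM, had 9.03 FPKM, and CON-post replicate 1, with 720 FPKM, had 7.73 FPKM. Slow, oxidative fibres are known for dense mitochondria. Within groups over the 16 libraries, Bdh1 had a Pearson correlation of 0.56 with the slow fibre score and of -0.71 with the fast fibre score, given as a description because all values share library and depth. The same values were 0.75 and -0.40 for Acat1, 0.39 and -0.55 for Oxct1, and -0.024 and 0.0017 for Aacs. With the slow fibre score in the fit, exercise over both diets gave 0.28 for Bdh1 (adjusted p of 0.422). With the liver score in the fit it gave 0.54 (adjusted p of 0.174), and CON-post against CON-pre moved from 0.45 to 0.77 (adjusted p of 0.352), still not called.

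Oxct1, the succinyl-CoA transferase that commits acetoacetate to oxidation, was the most abundant member and differed little between groups. CON-pre libraries held 109, 97.3, 118 and 110 FPKM (mean 109 ± 8.68 FPKM, SD, n = 4), and HFD-pre libraries held 96.2, 104, 90.5 and 107 FPKM (mean 99.4 ± 7.52 FPKM). CON-post libraries held 107, 111, 128 and 118 FPKM (mean 116 ± 9.20 FPKM), and HFD-post libraries held 113, 90.6, 98.2 and 85.7 FPKM (mean 96.9 ± 11.9 FPKM). The CON means were above the HFD means in both states, with overlap in each. Diet over both states gave a log2 fold change of -0.19 (95% confidence interval -0.33 to -0.06) with an unadjusted p of 0.00806, which did not pass the adjustment over all genes (adjusted p of 0.226). HFD-post against CON-post gave -0.26 (-0.45 to -0.07), with an adjusted p of 0.510. For exercise over both diets the value was 0.02 (-0.11 to 0.16), which turned to -0.021 and -0.028 under upper-quartile and quantile scaling.

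Acat1, the mitochondrial thiolase that ends ketone oxidation and also takes part in isoleucine breakdown, was higher in HFD muscle. Its levels were 40.7, 42.9, 45.3 and 46.6 FPKM in CON-pre (mean 43.9 ± 2.60 FPKM, SD, n = 4) and 51.2, 54.2, 52.8 and 56.2 FPKM in HFD-pre (mean 53.6 ± 2.13 FPKM). After exercise they were 48.5, 39.7, 47.7 and 47.0 FPKM in CON-post (mean 45.7 ± 4.08 FPKM) and 60.8, 51.7, 56.2 and 58.1 FPKM in HFD-post (mean 56.7 ± 3.83 FPKM). All 8 HFD libraries lay above all 8 CON libraries, and the share of all genes separated in this way was not counted. Between the 2 diets, 5.62% of all genes were without overlap at rest and 3.16% after exercise, in either direction. For Acat1, diet over both states gave a log2 fold change of 0.30 (95% confidence interval 0.19 to 0.41) with an adjusted p of 0.00739, and the call held without any single library. In single states the values were 0.29 at rest (adjusted p of 0.148) and 0.31 after exercise (adjusted p of 0.165), and with the slow fibre score in the fit both were called, at 0.34 each (adjusted p of 0.0181 and 0.0257). For diet over both states the 8 slow fibre markers tested were all below 0, with a median of -0.44 against -0.02 over all genes, and none was called by limma or had an unadjusted p under 0.05. Exercise over both diets gave 0.07 (-0.04 to 0.18), with an adjusted p of 0.528, and 0.022 and 0.0097 under upper-quartile and quantile scaling. Fast fibre markers (9 genes such as Myh4 and Tnni2) summed to 68780 to 76559 FPKM in CON-pre and 60621 to 68111 FPKM in HFD-pre without overlap, and to 62710 to 68257 FPKM in CON-post and 52169 to 67256 FPKM in HFD-post, with none of the 9 genes called for diet by limma and 6 lower at an unadjusted p under 0.05, which 10.4% of all genes had in either direction. The part of these sums in the diet differences of Acat1 and Aacs was not tested.

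The balance among the 4 transcripts differed between groups, as a description of the same values. The 4 summed to a mean of 161 FPKM in CON-pre, 162 in HFD-pre, 174 in CON-post and 165 in HFD-post, so the total overlapped between all groups. Oxct1 made up 65.8% to 69.6% of the sum in CON-pre and 59.9% to 63.0% in HFD-pre, and 64.1% to 68.6% in CON-post against 56.9% to 59.9% in HFD-post. Acat1 made up 25.8% to 29.0% in CON-pre and 32.2% to 35.0% in HFD-pre, and 24.6% to 29.2% in CON-post against 31.3% to 38.5% in HFD-post. In both states the shares of the 2 diets were without overlap, and no such shares were formed from other genes for comparison. The ratio of Oxct1 to Aacs, the oxidative against the cytosolic use of acetoacetate at the transcript level, averaged 69.0 in CON-pre, 155 in HFD-pre, 42.5 in CON-post and 69.6 in HFD-post. Every HFD-pre library, from 123 to 190, lay above all libraries of the other groups, of which HFD-post replicate 1 was the highest at 100.3. No test of these ratios was run.

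The genes whose pattern was most like each member over the 16 libraries are named by Pearson correlation of log2(FPKM + 0.5), with no p because the libraries share groups and depth. For Aacs they were Gde1 (0.87), Musk (0.86) and Fam13a (0.84), and the correlations within groups were 0.45, -0.14 and 0.24. For Bdh1 they were Actn2 (0.81), Esrrg (0.81) and Ppip5k1 (0.79), with 0.87, 0.81 and 0.76 within groups. For Oxct1 they were Pla2g16 (0.77), Fndc5 (0.77) and Rabep2 (0.76), with 0.59, 0.70 and 0.61 within groups. For Acat1 they were Acadm (0.95), Dhrs4 (0.94) and Ech1 (0.94), with 0.76, 0.74 and 0.73 within groups. The likeness of Aacs to Musk thus lay in the group means, whereas that of Bdh1 to Actn2 held among libraries of the same group. Between members the correlation within groups was highest for Bdh1 and Oxct1, at 0.76, and that of Aacs with the other members lay between -0.19 and 0.15.

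Of 13 other genes of ketone metabolism, transport and sensing, 5 passed the filter on low values, and none of these was called in any of the 7 comparisons by limma, with 1 of the 5, Slc16a1, at an unadjusted p under 0.05 in CON-post against CON-pre and for exercise over both diets, where 11.1% and 18.5% of all genes were. Slc16a1 (MCT1), a carrier of lactate and ketone bodies across the plasma membrane, had group means of 6.84 ± 1.26 FPKM in CON-pre, 7.34 ± 1.38 FPKM in HFD-pre, 8.53 ± 1.03 FPKM in CON-post and 8.85 ± 0.868 FPKM in HFD-post. The post and pre libraries overlapped on both diets, and exercise over both diets gave 0.29 (95% confidence interval 0.08 to 0.49) with an unadjusted p of 0.00926 and an adjusted p of 0.118. In single diets the values were 0.31 in CON-post against CON-pre (adjusted p of 0.419) and 0.27 in HFD-post against HFD-pre (adjusted p of 0.475, and 0.16 without HFD-pre replicate 2). Its partner Bsg (basigin), which brings the carrier to the membrane, had a mean of 275 FPKM and was called in no comparison. Bdh2 (mean 0.857 FPKM), Acat2 (1.10 FPKM), a cytosolic thiolase, and Slc16a6 (1.18 FPKM) were likewise called in no comparison. Acat2 shared 41.4% of its 50-base words with Acat3 and Tcp1, so its value is uncertain. Hmgcll1, Oxct2a, Oxct2b, Acat3, Slc16a7, Slc5a8 and Hcar2 had means under 0.5 FPKM, and the short-chain fatty acid receptor Ffar3 was listed at 0 in all 16 libraries.

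**Figure D3:**
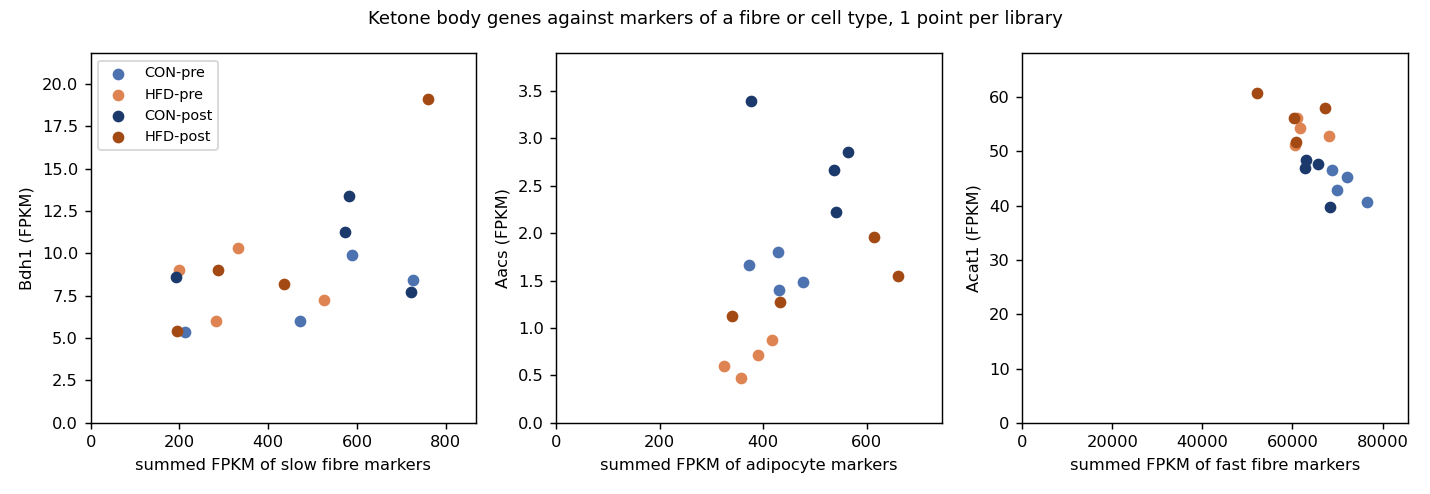
Level of Bdh1, Aacs and Acat1 (FPKM, y axes from 0) against the summed FPKM of slow fibre, adipocyte and fast fibre markers (x axes from 0), with 1 point per library coloured by group. The library with 761 FPKM of slow fibre markers also had the highest Bdh1, 19.1 FPKM, and the HFD libraries, at 51.2 FPKM of Acat1 or more, spanned 52169 to 68111 FPKM of fast fibre markers.

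Pathways next to the 4 genes were described from lists of their usual enzymes. Fatty acid synthesis, which takes up acetoacetyl-CoA carbon downstream of Aacs, had 14 genes tested, of which 2 were called lower and 0 higher in HFD-pre against CON-pre, where 0.346% of all genes were called. The list had a median of -0.40 there, on the log2 scale, against -0.03 over all genes. The called genes were the fatty acid synthase Fasn (-1.71, adjusted p of 0.00440) and the acetyl-CoA carboxylase Acaca (-0.67, adjusted p of 0.00837). For diet over both states, where 0.959% of all genes were called, 4 were called lower and 0 higher, with Fasn at -1.37 (adjusted p of 4.36e-04), Acaca at -0.52 (adjusted p of 0.00135) and the citrate carrier Slc25a1 at -0.88 (adjusted p of 0.0190), while the list's median was -0.09 against -0.02 over all genes. In HFD-post against CON-post none of the 14 was called by limma, with 1 higher and 3 lower at an unadjusted p under 0.05 against 6.29% of all genes, and 7 lay above and 7 below 0, with a median of 0.02 against 0.00 over all genes. In CON-post against CON-pre none of the 14 was called by limma. At an unadjusted p under 0.05, 1 was higher and 5 lower (11.1% of all genes), with a median of -0.28 against -0.01. In HFD-post against HFD-pre none was called, and 3 were higher and 0 lower at that threshold (11.7%), with a median of 0.13 against 0.04. The interaction median was 0.44 against 0.04, with none called and 2 higher and 0 lower (3.16%). Neither Fasn nor Acaca was called for exercise over both diets. The 1 gene of the list called there was Acacb, at 0.20 (adjusted p of 0.0161), against 3.86% of all genes, and its call was lost under upper-quartile and quantile scaling and with the liver score in the fit. Of 19 sterol synthesis genes tested, Dhcr7 was called lower in CON-post against CON-pre (-0.57, adjusted p of 0.0108, and 0.0562 without CON-pre replicate 1), 1 of 19 against 1.11% of all genes, and none was called for diet by limma, with 4 lower and 0 higher at an unadjusted p under 0.05 over both states, against 10.4% of all genes in either direction.

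Downstream of Acat1, all 16 TCA cycle genes tested had values above 0 for diet over both states, with a median of 0.07 against -0.02 over all genes, and none was called by limma, with 2 at an unadjusted p under 0.05 against 10.4% of all genes. Of 19 genes of isoleucine, leucine and valine catabolism tested, the pathway that shares Acat1, none was called for diet over both states by limma, with 1 higher and 5 lower at an unadjusted p under 0.05, again against 10.4% of all genes, and a median of -0.05. Of 10 regulators tested that are tied to ketone enzymes, Ppargc1a, the coactivator PGC-1α, was called in both post against pre comparisons, where 1.11% and 0.542% of all genes were called, with means of 6.60 and 4.69 FPKM in CON-pre and HFD-pre and of 28.3 and 22.3 FPKM in CON-post and HFD-post. Its log2 fold changes were 1.98 in CON-post against CON-pre (adjusted p of 4.38e-05) and 2.10 in HFD-post against HFD-pre (adjusted p of 2.87e-05). For exercise over both diets 4 of the 10 were higher at an unadjusted p under 0.05, against 18.5% of all genes in either direction.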

How the data were processed

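Polyadenylated RNA from 16 quadriceps muscles was sequenced with a stranded mRNA kit. The authors aligned reads with TopHat and derived the deposited FPKM values per gene with Cufflinks after FastQC, and versions and annotation are not given in the sources used here. The submitters' processing notes name mm9, but loci printed for 692 genes overlapped RefSeq GRCm38.p6 genes for all 692 and mm9 genes for 113, so positions and promoter windows were taken from RefSeq GRCm38.p6.

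From 24487 entries, 27 with a number in place of a name (0.0771% of all FPKM) were left out, and the entries of 260 symbols found more than once were summed. Values were tested as log2(FPKM + 0.5) for the 11256 symbols with a mean of at least 0.5 FPKM in a single fit of 4 groups with limma 3.58.1 (R 4.3.3) and a mean-variance trend, with Benjamini-Hochberg adjustment over all genes tested. Tests were two-sided, and a gene was called at an adjusted p under 0.05. Intervals are 95% confidence intervals. The procedure was tested on simulated data. The genes changed there had higher levels than Aacs and larger changes than any of the 4 enzymes, so that run says nothing of their calls. Summaries and drawings used Python 3.11.15 with numpy 2.4.6, pandas 2.3.3 and matplotlib 3.10.9. FPKM carry no read counts, so no counting interval could be given.

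Groups came from the deposited labels. The genes named were the 4 enzymes, every gene of a list of other ketone genes (some items of it are not reported here), up to 3 called genes of each neighbouring pathway list with the lowest adjusted p, and the 3 genes most correlated with each enzyme. Marker genes named as examples of a list, and Lep, Cfd, Fabp4 and Adipoq, fall outside this rule, and Lep, Cfd, Fabp4 and Adipoq were chosen after their values were seen. The 4 enzymes, the lists and the tests were chosen with earlier results of these data known. Alternatives were other pseudocounts, filters, scalings, thresholds and variance models, a fit of only the 2 groups compared, symbols in several entries left out, a replicate block, adipocyte and slow fibre marker scores as covariates, and each library left out in turn. A liver marker score as a covariate was added after seeing the data.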

Additional observations from a re-analysis of the deposited data

Results flagged for a closer look

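In 36 groups of 4 libraries (the 4 enzymes and the tested other ketone genes in each group), a library was looked for that stood apart from the other 3 by more of the group's range than Dixon's 95% critical value, which chance gives in about 1 in 20 groups. Acat1 in CON-post replicate 2 was 39.7 FPKM, against 47.0 to 48.5 FPKM in the other CON-post libraries, a gap of 0.833 of the range. Slc16a6 in CON-post replicate 2 was 1.68 FPKM, against 0.924 to 0.983 FPKM in the others, a gap of 0.922 of the range. The cause was not tested for either.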

How the results depend on the processing

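Values here are log2 fold changes, and the cause of a lost or gained call was not tested. The pooled calls were kept in every alternative run for Aacs (exercise 0.56 to 0.90, diet -1.02 to -0.63) and Acat1 (diet 0.27 to 0.34). For Aacs, CON-post against CON-pre was no longer called with a pseudocount of 0.1 (0.77), no filter (0.65), only the 2 groups (0.65), the adipocyte score (0.64) or the liver score (0.66), and without single libraries it ran from 0.56 to 0.73. HFD-post against HFD-pre was no longer called with no filter (0.76), only the 2 groups (0.76) or the adipocyte score (0.71), and ran from 0.65 to 0.85 without single libraries. HFD-pre against CON-pre ran from -0.93 to -0.76 without single libraries. HFD-post against CON-post was called with a pseudocount of 1 (-0.61) and under either looser threshold, adjusted 0.1 or unadjusted 0.05 (-0.74). Without single libraries it ran from -0.85 to -0.65, and the interaction from -0.0034 to 0.20.

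Uncalled values changed sign as follows. Bdh1 in HFD-post against CON-post was 0.11 with the adipocyte score and 0.027 with the slow fibre score, and -0.42 to 0.16 without single libraries. For diet it was -0.060 with array weights and -0.054 with the liver score, and -0.14 to 0.15 without single libraries, and without single libraries HFD-post against HFD-pre ran from -0.11 to 0.47 and the interaction from -0.56 to 0.018. Oxct1 in HFD-post against HFD-pre was 0.032 with the adipocyte score and -0.12 to 0.014 without single libraries. For exercise it was -0.021 with upper-quartile and -0.028 with quantile scaling, and -0.014 to 0.053 without single libraries. The Acat1 interaction was -0.014 with upper-quartile, -0.020 with median-of-ratios and -0.018 with quantile scaling, -0.0065 with array weights and -0.0011 with the slow fibre score, and -0.044 to 0.065 without single libraries. Acat1 was called with the slow fibre score at rest (0.34) and after exercise (0.34). An unadjusted p under 0.05 added Acat1 at rest (0.29) and after exercise (0.31), and Oxct1 in HFD-post against CON-post (-0.26) and for diet (-0.19). Acacb for exercise was no longer called with upper-quartile (0.16) or quantile scaling (0.15) or the liver score (0.19), nor Dhcr7 with only the 2 groups (-0.57).

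Same-numbered libraries deviated together weakly or not at all (r of -0.22 to 0.21), and the libraries were not treated as paired. With the replicate block, Aacs lost its call in CON-post against CON-pre (0.65, adjusted p of 0.0928) and in HFD-post against HFD-pre (0.76, adjusted p of 0.0703), and no other call of the 4 enzymes changed. Over all genes tested, the number called ran across the alternatives that adjust at 0.05 from 21 to 63 for HFD-pre against CON-pre (39 as reported), 72 to 190 for CON-post against CON-pre (125), 21 to 79 for HFD-post against HFD-pre (61), 2 to 33 for HFD-post against CON-post (17) and 246 to 591 for exercise (435), and reached 193 for diet (108) and 1 for the interaction (0). FPKM without read counts limit what can be said of low genes such as Aacs.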
